A study of Mus musculus with 2 samples.

Results

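The 10 genes described here, Csf1r, Cx3cr1, Fcer1g, Tyrobp, C1qa, C1qb, C1qc, Lyz2, Mrc1 and Ptprc, are genes of the macrophages that enter embryonic tissues. They were chosen by name, out of 19057 genes named on the array, and all 10 had at least 1 probe, 16 probes in all. Their RNA was measured on 2 Illumina mouse bead arrays. The total heart array read the RNA of dissociated E11.5 mouse hearts, all cell types included, and the other array read epicardial cells positive for lacZ from the same stage. Both samples had the genotype Tcf21lacZ, with a strain background mixed from C57BL/6, 129 and CD-1, and no heart without that allele was among them. Tcf21 encodes a transcription factor of the epicardium, the cell layer that covers the heart, and of the mesenchyme derived from it. Expression of lacZ from this allele marks cells in which the locus was active, and the purity of the isolated cells was not tested. How many embryos were pooled and how the lacZ-positive cells were sorted is not given in the sources used here.

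Macrophages of the embryonic heart derive first from the yolk sac and later also from fetal liver monocytes. Csf1r is the receptor tyrosine kinase that keeps macrophages alive, and Cx3cr1 is a chemokine receptor of their precursors. Fcer1g and Tyrobp are short membrane adaptors with an immunoreceptor tyrosine-based activation motif (ITAM), which passes signals from Fc and lectin-like receptors to the kinase Syk. C1qa, C1qb and C1qc encode the 3 chains of C1q, the recognition molecule of classical complement, which macrophages secrete. Lyz2 encodes lysozyme, Mrc1 the mannose receptor, and Ptprc the phosphatase CD45 found on leukocytes.

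With 1 array in each group there is no replicate check and no test between the groups. Differences are described by size, with the standard error over the beads of a probe, which leaves out any spread between animals or isolations. In both samples RNA came from many cells, so fewer macrophages and less RNA per macrophage cannot be told apart. The median raw intensity was 57.6 for total heart and 63.5 for the lacZ-positive cells. Probes were taken as detected when under 1% of control probes were as bright, that is at a detection p-value under 0.01. The dimmest probe so detected had an intensity of 79.7 for total heart and 86.9 for the lacZ-positive cells. Among 9713 genes with a detected probe, 3.82% had a signal in the lacZ-positive cells 2-fold or more above that in total heart, and 6.44% had one 2-fold or more below it. These shares use measured signals; with genes detected on 1 array only at their bounds they were 3.29% and 5.48%. Of the epicardial and mesothelial markers 11 of 14 detected genes were higher there by this measure, and of the cardiomyocyte markers 13 of 17 were lower, so the sample differed from the whole heart in the direction of its label. Cardiomyocyte RNA was still bright there. Before normalization, detected probes of the cardiomyocyte markers summed to 233680 in total heart and 114473 in the lacZ-positive cells. Myl2 alone had intensities of 41900 and 28060.

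Sequences just before the start sites of 4 genes are shown as background, and no ratio was tested against them. C1qb and C1qc lie next to each other on chromosome 4, with C1qa as the next gene, and gave similar ratios between the arrays. C1qa was not detected and was dimmer in the lacZ-positive cells. Lyz2 and Lyz1, a second lysozyme gene, are neighbours on chromosome 10, and both were lower in the lacZ-positive cells. Each window holds the 250 bases before the start site in RefSeq's mouse annotation, build GRCm38.p6, read 5′ to 3′ on the strand of the gene. In the C1q pair capitals mark GAGGAA, or its reverse complement TTCCTC, called the core below. It is a form of the site bound by PU.1, a transcription factor of myeloid cells, and other forms were not searched. In the lysozyme pair capitals mark the longest run shared by both windows.
C1qb, chr4:136886201-136886450, minus strand: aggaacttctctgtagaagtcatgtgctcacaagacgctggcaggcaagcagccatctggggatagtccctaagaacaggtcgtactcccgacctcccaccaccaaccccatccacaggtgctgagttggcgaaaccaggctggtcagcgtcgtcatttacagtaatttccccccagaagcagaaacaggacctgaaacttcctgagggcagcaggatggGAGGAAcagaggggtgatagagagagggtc
C1qc, chr4:136892915-136893164, minus strand: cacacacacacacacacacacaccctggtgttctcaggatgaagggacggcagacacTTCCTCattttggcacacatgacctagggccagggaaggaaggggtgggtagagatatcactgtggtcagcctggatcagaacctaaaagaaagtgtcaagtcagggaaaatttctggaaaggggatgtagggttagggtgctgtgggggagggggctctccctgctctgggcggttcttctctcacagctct
Lyz2, chr10:117282273-117282522, minus strand: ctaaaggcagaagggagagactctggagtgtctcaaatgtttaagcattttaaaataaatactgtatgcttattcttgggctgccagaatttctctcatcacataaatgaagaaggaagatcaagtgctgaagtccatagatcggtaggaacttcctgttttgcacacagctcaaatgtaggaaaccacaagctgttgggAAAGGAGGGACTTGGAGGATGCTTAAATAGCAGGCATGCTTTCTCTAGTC
Lyz1, chr10:117292869-117293118, minus strand: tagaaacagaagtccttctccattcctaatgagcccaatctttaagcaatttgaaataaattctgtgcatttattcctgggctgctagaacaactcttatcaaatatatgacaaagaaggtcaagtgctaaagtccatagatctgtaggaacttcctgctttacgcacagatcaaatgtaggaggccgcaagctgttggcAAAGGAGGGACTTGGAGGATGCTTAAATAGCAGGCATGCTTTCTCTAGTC
Counted from the start site, with the base before it as -1, the core begins at -30 in C1qb and at -193 in C1qc. Neither lysozyme window held these letters, though both held GGAA, the last part of GAGGAA. The shared run of the lysozyme windows is 50 bases long and ends at the start site in both, and over 248 aligned bases the windows were 80.6% identical. Windows were read for 7 of the 10 genes, 8 windows in all, since Ptprc had more than 1. Of the 7 genes 4, Ptprc, Mrc1, C1qb and C1qc, held the core at least once, and Ptprc held it in 1 of its windows. Of all 32851 windows in the annotation, counted singly and not by gene, 23.3% held it. A match describes the letters of a window and is no measurement of binding. Csf1r was left out of this search, and C1qa and Tyrobp had no window here.

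Of the 10 genes 6 had a detected probe, Csf1r, Cx3cr1, C1qb, C1qc, Lyz2 and Mrc1, and each of these was detected on both arrays. The other 4, Fcer1g, Tyrobp, C1qa and Ptprc, were not well above background on either. Over all 19057 named genes the share with a detected probe was 51.0%, so 6 of 10 is near that share. Lyz2 alone of the 6 was past 2-fold, with the lower signal in the lacZ-positive cells, which makes 1 lower, 0 higher and 5 within 2-fold, beside 6.44% lower and 3.82% higher among all genes analysed. Their median log2 ratio, lacZ-positive minus total heart, was -0.082, and that of all 9713 genes was 0.044. All 6 were dim: their normalized signals lay between percentiles 11.2 and 47.2 of the analysed genes on the total heart array and between 15.4 and 35.0 on the lacZ-positive array. Over the 2141 genes whose mean signal lay within the range of these 6, the quartiles of the log2 ratio were -0.34 and 0.35, and the 5 genes other than Lyz2 lay between them.

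**Figure D1:**
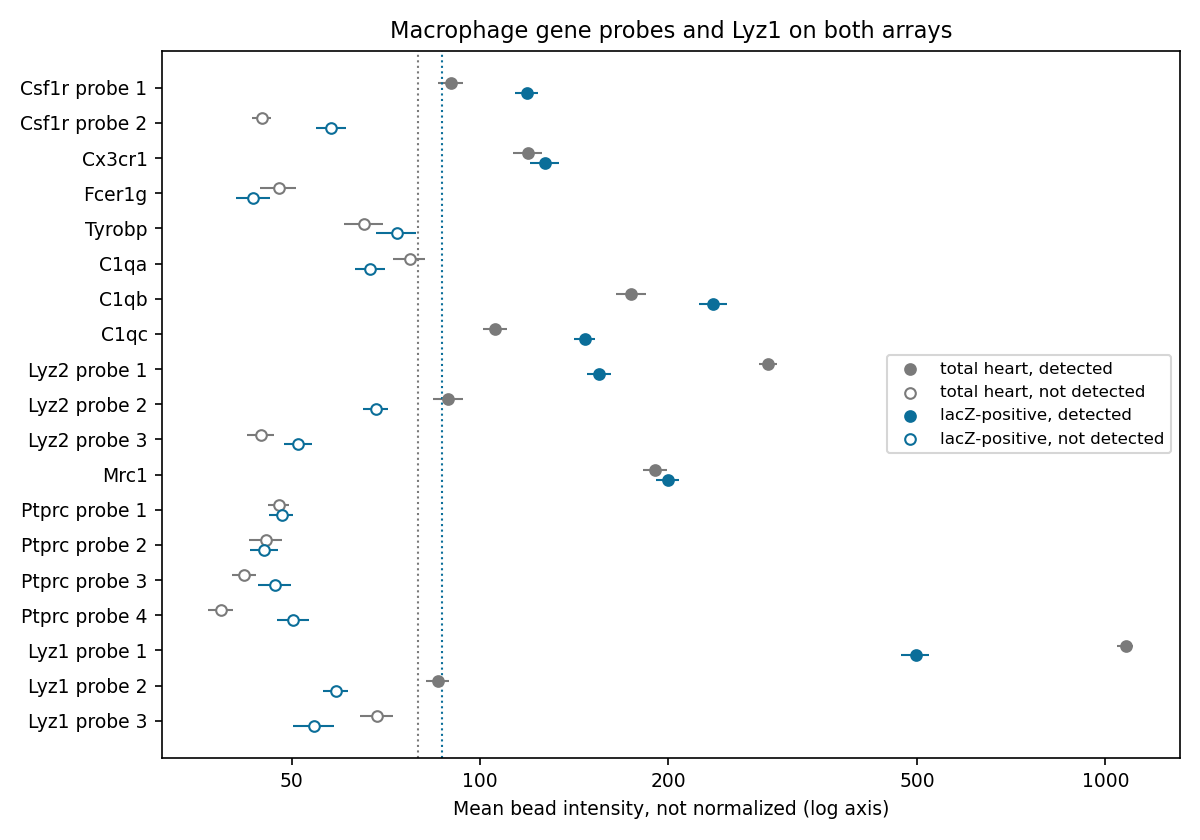
Mean bead intensity before normalization (horizontal, log axis) of the 16 probes of the 10 macrophage genes and the 3 probes of Lyz1, in total heart (grey) and lacZ-positive cells (blue), with bars for 1 standard error over beads; dotted lines give the lowest detected intensity of each array. Filled points are detected probes, and the probes of Lyz2 and Lyz1 detected in total heart are the ones clearly brighter there.

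Among the receptors, Csf1r was read by a pair of probes. The brighter gave a raw intensity of 89.8 ± 4.01 (standard error over 43 beads) in total heart and 119 ± 5.18 (43 beads) in the lacZ-positive cells. After normalization its log2 signal was 5.97 and 6.18, a log2 ratio of 0.21 with a bead standard error of 0.15, so the arrays were nearly level. The dimmer probe had intensities of 44.7 and 57.9 and was not detected, with detection p-values of 0.719 and 0.256. Cx3cr1 had an intensity of 119 ± 6.46 (54 beads) in total heart and 127 ± 6.81 (45 beads) in the lacZ-positive cells. Its log2 signals of 6.61 and 6.32 gave a ratio of -0.28 with a bead standard error of 0.16, which is 1.22-fold lower. Neither receptor was past 2-fold, and raw intensities of both were higher in the lacZ-positive cells, on an array that was brighter as a whole.

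Mrc1, the mannose receptor, which takes up glycoproteins and is also made by some endothelial cells, had an intensity of 190.5 ± 8.38 (28 beads) in total heart and 199.9 ± 8.49 (37 beads) in the lacZ-positive cells. Its log2 ratio was -0.32 with a bead standard error of 0.11, or 1.25-fold lower. Of the endothelial markers 13 of 15 detected genes were within 2-fold, 2 were lower and 0 higher. Their median log2 ratio was -0.11, and 10 of the 15 lay below 0, beside 45.7% of all genes. Before normalization, with the lacZ-positive array brighter as a whole, the intensities of their detected probes summed to 20177 in total heart and 26116 in the lacZ-positive cells. The part of endothelial cells in the Mrc1 value was not tested.

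The 3 chains of C1q did not all pass the limit of detection. C1qb was the brightest, with an intensity of 175 ± 9.66 (34 beads) in total heart and 236 ± 11.9 (31 beads) in the lacZ-positive cells. Its log2 signals, 7.33 and 7.45, gave a ratio of 0.12 with a bead standard error of 0.13. C1qc, whose upstream window is shown beside that of C1qb above, had intensities of 106 ± 4.56 (36 beads) and 147 ± 5.58 (41 beads). Its log2 ratio was 0.26 with a bead standard error of 0.12, the highest of the 6 detected genes and well within 2-fold. C1qa stood just outside the limit, at 77.2 ± 4.66 (41 beads) with a detection p-value of 0.0128 in total heart and at 66.8 ± 3.79 (32 beads) with one of 0.0844 in the lacZ-positive cells. Unlike the other chains it was dimmer in the lacZ-positive cells. At a limit of 0.05 it would count as detected in total heart alone, where it was at least 1.42-fold higher after quantile normalization. This bound depends on the processing. By measured signal C1qa was 1.59-fold higher in total heart so processed, and 1.41-fold with no normalization between arrays. It was 1.31-fold higher with no background correction, 1.28-fold with an offset of 50 and 1.23-fold with the authors' processed values. C1qb and C1qc thus lay near level, and the value of C1qa rests on signals close to background.

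The ITAM adaptors gave little or no signal. The Fcer1g probe had an intensity of 47.7 ± 3.15 (38 beads) in total heart and 43.4 ± 2.71 (31 beads) in the lacZ-positive cells, with detection p-values of 0.528 and 0.918. Tyrobp had 65.3 ± 4.71 (35 beads) and 73.6 ± 5.41 (28 beads), with detection p-values of 0.0491 and 0.0374, so that it passed a limit of 0.05 on both arrays, where its log2 ratio was 0.015 with a bead standard error of 0.26. No difference was measurable for either adaptor. Ptprc was read by 4 probes, whose intensities lay between 38.5 and 47.7 in total heart and between 45.2 and 50.3 in the lacZ-positive cells. The lowest detection p-value of the 4 was 0.531 in total heart and 0.561 in the lacZ-positive cells. None of the 4 was above background, so these arrays set no level for CD45.

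Lyz2 stood apart from the other detected genes. Its brightest probe had an intensity of 289 ± 9.88 (44 beads) in total heart and 155 ± 6.77 (39 beads) in the lacZ-positive cells, the one member probe detected on both arrays that was dimmer in the lacZ-positive cells before any normalization. The log2 signal was 8.18 in total heart and 6.71 in the lacZ-positive cells, a ratio of -1.48 with a bead standard error of 0.099, or 2.79-fold lower. The second probe had 89.0 ± 4.96 (37 beads) in total heart and 68.2 ± 3.11 (43 beads) in the lacZ-positive cells, where it was not well above background, and was at least 1.36-fold lower. The third probe, with intensities of 44.7 and 51.2, was not detected on either array. The 2 probes that were detected in total heart therefore gave the same direction.

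Lyz1, whose upstream window resembles that of Lyz2, encodes a lysozyme known from Paneth cells of the mouse intestine and is not one of the 10 genes. Its brightest probe had an intensity of 1077 ± 31.9 (50 beads) in total heart and 497 ± 25.5 (47 beads) in the lacZ-positive cells, a log2 ratio of -1.59 with a bead standard error of 0.089, or 3.02-fold lower. A second Lyz1 probe, not well above background in the lacZ-positive cells, was at least 1.27-fold lower, and the third was detected on neither array. Of the 6 lysozyme probes 4 were detected in total heart, and all 4 were dimmer in the lacZ-positive cells. The genes are closely related copies whose probe sequences were not used here, so each probe may read RNA of both, and the probes are not independent. Other blood cell markers were also lower in the lacZ-positive cells. All 14 detected erythroid markers were lower by 2-fold or more, with intensities of their detected probes that summed to 59448 in total heart and 15022 in the lacZ-positive cells. Of 11 detected megakaryocyte and platelet markers 10 were lower by 2-fold or more by measured signal, and 9 with bounds, with sums of 6104 and 2800. The 4 detected neutrophil and monocyte markers, of 17 with a probe, were all below 0, beside 45.7% of all genes, and within 2-fold. Their median was -0.44, and -0.081 with no normalization between arrays, where that of all genes was 0.42. The part of these cells in the Lyz2 value was not tested.

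**Figure D2:**
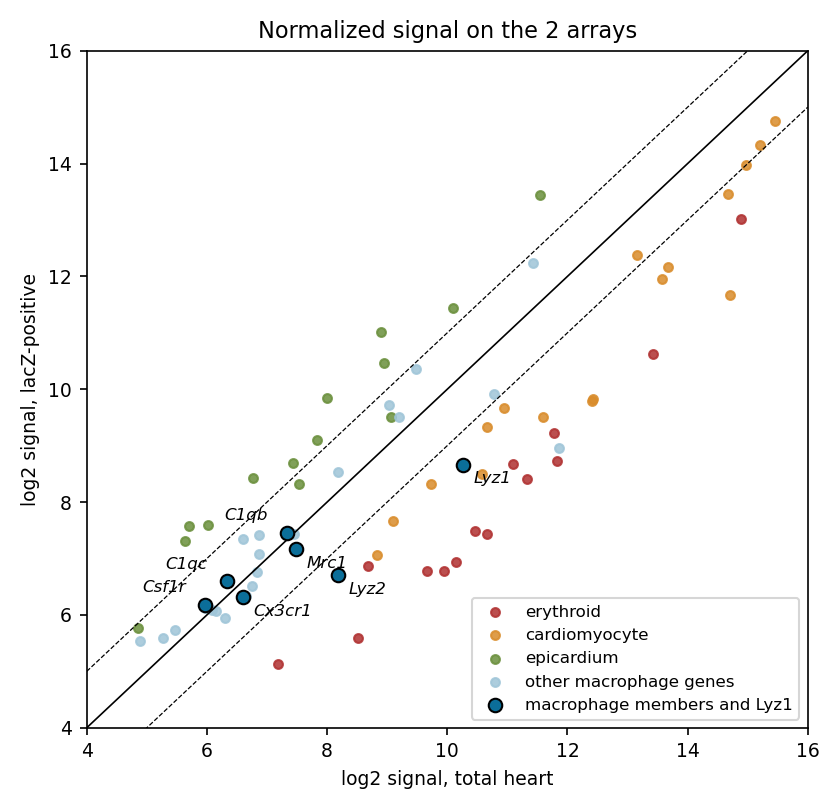
Normalized log2 signal in total heart (horizontal) and lacZ-positive cells (vertical) of the 6 detected macrophage genes and Lyz1 (outlined), the other macrophage genes, and the erythroid, cardiomyocyte and epicardial markers; each point is 1 gene, the solid line marks equal signal and dashed lines 2-fold. Lyz2 and Lyz1 lie below the lower dashed line, and the other 5 macrophage genes lie near the solid line.

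The scaling between the arrays set the sign of the small ratios of Cx3cr1 and Mrc1. Without normalization between arrays all genes together had a median log2 ratio of 0.42, and these genes moved to 0.070 and 0.054. Relative to the median of all genes, Cx3cr1 lay between -0.35 and -0.20 and Mrc1 between -0.37 and -0.26 over 5 ways of scaling and background correction, the authors' processed values among them. On the same relative scale C1qb lay between 0.049 and 0.078, Csf1r between 0.074 and 0.17 and C1qc between 0.11 and 0.22. Lyz2 stayed lower in all 5, between 2.11-fold and 2.79-fold, and between -1.54 and -1.11 relative to the median of all genes. Probes of the same gene gave log2 ratios that varied by 0.25 (SD per probe, from 2145 genes with a pair of detected probes), and the ratios of Csf1r, C1qb and C1qc were 0.26 or less.

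**Figure D3:**
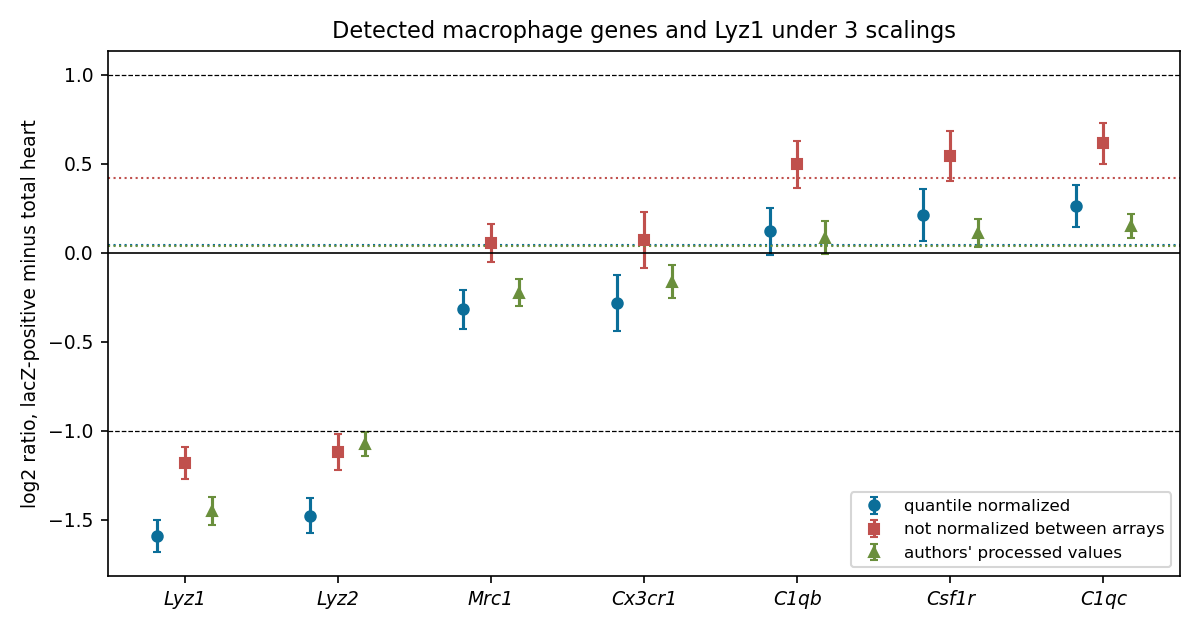
The log2 ratio, lacZ-positive minus total heart (vertical), of the 6 detected macrophage genes and Lyz1 by their brightest probe, after quantile normalization (circles), without normalization between arrays (squares) and from the authors' processed values (triangles), with bars for 1 bead standard error. Dotted lines are the medians of all genes and dashed lines 2-fold; both lysozyme genes lie below the lower dashed line under each scaling, and the signs of Mrc1 and Cx3cr1 turn without normalization.

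Other macrophage genes were mostly not detected or within 2-fold. Of 63 with a probe, 21 were detected, 18 of them in total heart and 21 in the lacZ-positive cells. Past 2-fold were 1 of these, which was lower, and 0 that were higher; the other 20 were within it. With no normalization between arrays 4 were higher, and the median given next became 0.52. Their median log2 ratio was 0.22, and 0.0025 with genes detected on 1 array at their bounds. Aif1, which encodes an actin-binding protein of macrophages, had intensities of 94.1 and 113 and a log2 ratio of 0.0025. Fcgr3, an Fc receptor gene whose product signals through the Fcer1g adaptor, stood at -0.24, the factor XIII gene F13a1 at -0.31 and the hyaluronan receptor gene Lyve1 at 0.16. Mertk, which clears dying cells, stood at 0.54. The highest were Rnase4, a ribonuclease gene, at 0.87, and Stab1, a scavenger receptor gene that endothelial cells also use, at 0.82 by its brightest probe, while its other probes gave -0.20 and -0.020. The lysosomal protease gene Lgmn stood at -0.86. The exception was Ncf4, which encodes a subunit of the phagocyte oxidase, with an intensity of 3273 in total heart and 606 in the lacZ-positive cells and a ratio 7.49-fold lower. Cybb and Ncf1, which encode other subunits of that oxidase, were not detected on either array. The log2 ratio of Ncf4 was -2.91, beside a median of -2.90 for the erythroid markers. The part of red cells in the Ncf4 value was not tested. Adgre1, which encodes the macrophage antigen F4/80, and Itgam, Itgb2, Cd14, Fcgr1 and Spi1, the gene of PU.1, were not detected on either array. Adgre1 came closest, with lowest detection p-values of 0.0160 in total heart and 0.0310 in the lacZ-positive cells. Most of these other macrophage genes were thus below the limit of detection in both samples, with 33.3% detected beside 51.0% of all named genes. For genes of leukocytes in general, 20 of 39 were detected. Of these, 3 were lower by 2-fold or more by measured signal, 2 with bounds, and 0 were higher. Below 0 lay 16 of the 20, beside 45.7% of all genes analysed. The count lower by 2-fold was 1 with no normalization between arrays. The median of the 20 was -0.32, against 0.044 for all genes. With no normalization between arrays it was 0.026, against 0.42 for all genes. Laptm5, a lysosomal membrane gene of blood cells, had intensities of 1119 and 1105 and a log2 ratio of -0.45, and Coro1a, an actin regulator, stood at -0.98 by the brightest of 3 probes that all lay between -0.98 and -0.92.

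**Figure D4:**
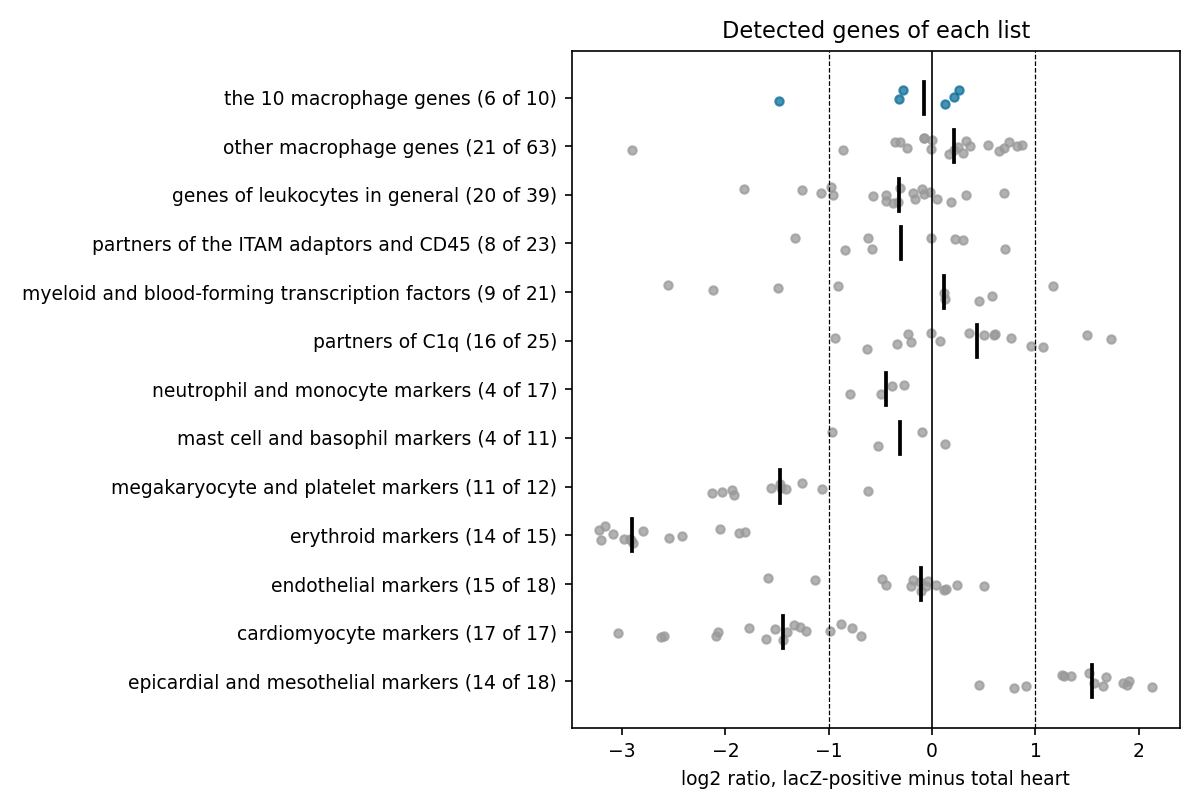
The log2 ratio, lacZ-positive minus total heart (horizontal), of each detected gene of the macrophage genes (blue) and of the comparison lists (grey), with the number detected of those with a probe in brackets; black bars are medians, dashed lines 2-fold, and vertical scatter within a row has no meaning. The macrophage genes other than Lyz2 and nearly all other macrophage genes lie within 2-fold, while all erythroid markers lie below -1; the lymphocyte list, with 1 detected gene of 15, is not drawn.

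Partners of these genes included several past 2-fold. Csf1, which encodes the ligand that Csf1r binds, had an intensity of 103 in total heart and 295 in the lacZ-positive cells. Its log2 ratio was 1.55 with a bead standard error of 0.15, or 2.92-fold higher by its 1 detected probe, where Csf1r itself was near level. Il34, the gene of the other ligand of Csf1r, was not detected, and Cx3cl1, which encodes the ligand of Cx3cr1, had intensities of 95.7 and 96.9 and a log2 ratio of -0.37. Of 25 partners of C1q with a probe, among them proteases, regulators, receptors and related C1q-like proteins, 16 were detected. By measured signal 3 were 2-fold or more higher and 0 lower, and with genes detected on 1 array at their bounds 2 were higher. The median of these 16 was 0.43, and 0.16 with genes detected on 1 array at their bounds. The 2 were Cfi, which cleaves complement fragments, 3.33-fold higher, and Serping1, the inhibitor of the C1 proteases, 2.82-fold higher. The genes of the C1 proteases themselves, C1ra, C1rb, C1s1 and C1s2, were not detected on either array. The scavenger receptor gene Lrp1 was detected in the lacZ-positive cells only, at least 1.59-fold higher, and is not shown to be past 2-fold. Of 23 partners of the ITAM adaptors and CD45, 8 were detected, and Plcg2, a phospholipase downstream of Syk, was 2.51-fold lower, while 7 were within 2-fold. Plcg2 was no longer past 2-fold with no normalization between arrays or with the authors' processed values. The kinase genes Btk and Csk stood at -0.84 and 0.22, and Syk was not detected.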

How the data were processed

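Biotin-labelled cRNA of both samples was hybridised to Illumina bead arrays, and the authors used GenomeStudio, per the submitters' processing notes. Per the file headers, the authors deposited for each of 45281 probes and each array an intensity averaged over beads and not normalized, with its standard error, the count of beads (median 43 on each array) and a detection p-value. A second deposited table held intensity values that the authors had equalised between the arrays by a method not given in the sources used here, with a median of 58.3 on both. Genes were named through GEO's platform annotation, where 34885 probes had 1 symbol, 18 had several and 10378 had none. The symbols of all 10 macrophage genes matched RefSeq by gene identifier.

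Intensities were background-corrected by normexp from the detection p-values with an offset of 16 (nec, limma 3.58.1, R 4.3.3), quantile-normalized between arrays and log2-transformed. A gene was analysed if a probe had a detection p-value under 0.01 on at least 1 array, and its brightest detected probe stood for it. The bead standard error was carried through the same transformation. A gene whose probe was detected on 1 array only has a bound, "at least N-fold": the bright signal is set against the dim array's lowest detected signal, or against the dim signal itself where that is higher. The steps were tested on simulated data with changes larger than 2-fold. The changed probes were brighter in total heart than all detected macrophage genes but Lyz2, so the test does not cover small ratios of dim probes. The number of arrays, 1 in each group, limits the precision.

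The genes and the 14 comparison lists were chosen with earlier results of these data known. All 10 genes are named. Examples from the lists were taken from the 3 highest and 3 lowest log2 ratios of each and any past 2-fold, and not all of these are named; Lyz1, Aif1, Fcgr3, F13a1, Lyve1, Mertk, Laptm5, Coro1a and the genes not detected were named after their values were seen. Tgfb1 and Ccl25, ligands of other receptors, were taken out of the ligand list after values were seen. Alternatives were no normalization between arrays, no background correction, an offset of 50, the authors' processed values, the mean of a gene's probes, a detection limit of 0.05 or none, and a 1.5-fold limit.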

Additional observations from a re-analysis of the deposited data

How the results depend on the processing

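No paired analysis was possible because each group had 1 array. With no normalization between arrays the log2 ratios were 0.54 for Csf1r, 0.070 for Cx3cr1, 0.50 for C1qb, 0.61 for C1qc, 0.054 for Mrc1 and -1.12 for Lyz2, with a median of 0.28 for the 6 genes and 0.42 for all genes, and 1020 genes were at least 2-fold higher and 381 lower. Lyz2 stood at -1.22 with no background correction, -1.23 with an offset of 50, -1.08 with the authors' processed values and -1.25 as the mean of its detected probes. In all these settings Lyz2 was the 1 macrophage gene past 2-fold. Over all genes, 371 were higher and 626 lower as reported. The number higher was 225 with no background correction, 223 with an offset of 50 and 189 with the authors' processed values, which gave 361 lower. A 1.5-fold limit gave 1199 higher and 1230 lower. For genes of leukocytes in general the 3 lower became 1 with no normalization between arrays, with no background correction, with an offset of 50 and with the authors' processed values. Without the detection filter all 10 macrophage genes had a ratio, but signals near background make those of Fcer1g and Ptprc uninformative. For other macrophage genes 0 higher became 4 with no normalization between arrays and 5 at a 1.5-fold limit, and for partners of the ITAM adaptors 1 lower became 0 with no normalization and with the authors' processed values. The cause of each change was not tested.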

Other observations

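Blood-forming transcription factor genes spread widely. Of 21 with a probe, 9 were detected. By measured signal 3 of these were lower in the lacZ-positive cells by 2-fold or more, 1 was higher and 5 were within that range. Ikzf1, which encodes a zinc finger factor of blood cells, had an intensity of 532 in total heart and 149 in the lacZ-positive cells by its brightest probe and was 5.88-fold lower. Its other detected probes gave log2 ratios of -2.26 and -1.99 by measured signal. The probe at -1.99 was not well above background in the lacZ-positive cells. Tal1 was 4.36-fold lower and Lyl1 2.81-fold lower. Cebpb, a factor also used outside blood, was 2.24-fold higher. Id2 and Zeb2, also used in many tissues, stood at 0.58 and 0.45 by their brightest probes, which count them as within 2-fold. Other detected probes of Id2 gave 1.38, or 2.61-fold higher, and 0.85, and another of Zeb2 gave 0.74.

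Among genes of leukocytes in general, Fermt3, which encodes an integrin activator of blood cells and platelets, was 3.54-fold lower and the adaptor gene Sla 2.11-fold lower. Was, an actin regulator of blood cells, was not well above background in the lacZ-positive cells and was at least 1.82-fold lower. Of 11 mast cell and basophil markers 4 were detected, all within 2-fold. Of 15 lymphocyte markers with a probe only Thy1 was detected, at 0.39, a gene that some non-blood cells of the mouse also express.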
